A study of Mus musculus with 24 samples.

Results

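Wide blocks of differential 5-hydroxymethylcytosine (5hmC) were stretches in which at least 3 neighbouring windows of 200 bp were all listed as higher in the same one of 2 mouse embryonic stem cell (ESC) lines. They were selected on the deposited calls alone: the windows called with higher 5hmC in 1 line were joined where their bins touched, and joined regions of 3 or more windows were kept. Of 17677 joined regions, 391 were such blocks, 180 with higher 5hmC in Wt25 and 211 with higher 5hmC in AA10. Because the calls, their direction and their closeness chose the blocks, the numbers, widths, chromosomes and clustering given here are descriptions without a test. Sequence, repeats and gene annotation were not used to join the windows, and those were tested. Repeat content had still shaped the lists. The authors used uniquely mapping reads and took out bins with simple tandem repeats or low-complexity sequence.

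Both lines were ESCs of a mixed C57BL/6J-129V background that lack Tet1, Tet2 and Tet3, and both were grown in 2i medium with LIF. A lentivirus carried Flag-tagged human Tet3 into them, in its wild-type form in Wt25 and as a phosphor-mutant in AA10, in which 2 serines of its catalytic domain were replaced by alanine. The vector drives its insert from the EF1alpha promoter, and each line was a single puromycin-selected clone, so differences between the proteins and differences between the clones cannot be told apart. DNA was immunoprecipitated with an antibody against 5hmC (5hmC-DIP) from 3 replicates of Wt25 and 3 of AA10, and the authors pooled them into 1 list of windows per direction. The lists held 12096 windows for Wt25 and 8630 for AA10, which is 0.0888% and 0.0633% of the 13627597 bins on the 21 chromosomes. How many bins were tested was not given in the sources used here, and nothing is read from these shares. The lists give positions and genes without any count or score, so the depth behind a block and its error are unknown.

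Tet enzymes oxidise 5-methylcytosine to 5hmC, a step towards the removal of the methyl group. In ESCs, methylated cytosines lie mostly in CpG dinucleotides, and 5hmC is known from gene bodies, enhancers and the borders of CpG-rich promoters. Antibody capture follows the amount of 5hmC in a fragment, and a fragment can reach across neighbouring windows. Sequence that occurs in several copies is harder to place, because a short read may match several copies.

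The sequences below show how different the wide blocks were, with the middle window of the widest block outside dense clusters, of the widest promoter block and of the widest block inside a cluster for each line. All are on the plus strand of GRCm38.p6, and capitals mark CpG dinucleotides. From Wt25 they are the intergenic window chr13:66469403-66469600, 28.4 kb from the start of 2410141K09Rik, the window chr3:57616003-57616200 in the promoter of the microRNA gene Mir6377, and the window chr5:130471003-130471200 in an intron of Caln1, which encodes the calcium-binding protein calneuron 1.
2410141K09Rik: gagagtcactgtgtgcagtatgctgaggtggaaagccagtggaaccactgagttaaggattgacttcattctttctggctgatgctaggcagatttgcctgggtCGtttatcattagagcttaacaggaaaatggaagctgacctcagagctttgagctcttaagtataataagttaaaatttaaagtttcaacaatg
Mir6377: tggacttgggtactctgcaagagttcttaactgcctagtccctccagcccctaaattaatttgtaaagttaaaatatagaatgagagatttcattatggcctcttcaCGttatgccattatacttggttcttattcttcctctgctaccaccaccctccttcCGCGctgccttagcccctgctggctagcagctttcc
Caln1: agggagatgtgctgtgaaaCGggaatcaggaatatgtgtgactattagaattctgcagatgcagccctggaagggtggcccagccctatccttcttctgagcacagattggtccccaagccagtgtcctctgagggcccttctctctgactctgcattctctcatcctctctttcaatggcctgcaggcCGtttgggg

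From AA10 they are the window chr1:153227403-153227600 inside Lamc1, which encodes the laminin gamma 1 chain, the window chr14:20674203-20674400 at the promoter of Sec24c, a cargo-binding subunit of the COPII coat, and the intergenic window chr1:118146203-118146400, whose nearest start is that of Tsn.
Lamc1: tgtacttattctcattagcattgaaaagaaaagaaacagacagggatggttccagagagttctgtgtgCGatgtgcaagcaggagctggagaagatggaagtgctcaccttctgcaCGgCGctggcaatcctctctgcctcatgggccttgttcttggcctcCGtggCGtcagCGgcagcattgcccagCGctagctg
Sec24c: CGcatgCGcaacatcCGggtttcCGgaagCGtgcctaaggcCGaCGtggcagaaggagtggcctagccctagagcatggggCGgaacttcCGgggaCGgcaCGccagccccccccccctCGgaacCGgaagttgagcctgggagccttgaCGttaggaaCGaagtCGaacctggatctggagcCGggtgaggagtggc
Tsn: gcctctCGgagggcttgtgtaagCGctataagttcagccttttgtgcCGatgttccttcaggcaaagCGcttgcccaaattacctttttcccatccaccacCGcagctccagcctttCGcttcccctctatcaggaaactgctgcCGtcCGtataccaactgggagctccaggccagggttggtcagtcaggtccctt

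The 3 Wt25 windows held 1, 3 and 2 CpGs, and the 3 AA10 windows held 7, 17 and 8. The Tsn window lay wholly in repeat sequence, and its 32-mers occurred a median of 89 times in the genome. For the 2410141K09Rik window the median was 3 copies, and for the other 4 windows it was 1. These windows do not stand for their lists. Over all blocks the middle window held a median of 2 CpGs in both lists, and outside segments 3 in Wt25 and 4 in AA10. Mir6377 was taken by genome order among equally wide Wt25 promoter blocks. The middle windows of those at Plekha7, Dctn6, Palm3 and Slc9a9 held 7, 11, 7 and 3 CpGs.

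Blocks were a small part of each list. In Wt25, 9172 of 10504 joined regions were single windows, 1152 had 2 windows and 180 (1.71%) were blocks. In AA10, 6241 of 7173 joined regions were single windows, 721 had 2 windows and 211 (2.94%) were blocks. The blocks took up 620 windows of Wt25 (5.13%) and 947 windows of AA10 (10.97%), 123.6 kb and 189.0 kb of sequence.

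Most blocks were only just wide enough to count. In Wt25, 127 blocks had 3 windows, 36 had 4, 10 had 5, 5 had 6, 1 had 7 and 1 had 8. The AA10 blocks reached further: 109 had 3 windows, 41 had 4, 25 had 5, 8 had 6, 8 had 7, 6 had 8 and 14 had more than 8. The median width was 598 bp in both lists, but the widest block was 1598 bp in Wt25 and 5398 bp, 27 windows in a row, in AA10. At the lower limit of the rule, the blocks of 3 windows held a median of 1.17 CpGs per 100 bp in Wt25 and 1.17 in AA10. The regions of 2 windows, just outside it, held 1.26 and 1.26. A middle window mostly made of copied 32-mers was found in 36.7% of AA10 blocks of 3 windows against 18.6% of AA10 regions of 2 windows. In Wt25 these shares were 24.4% and 12.2%.

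**Figure D1:**
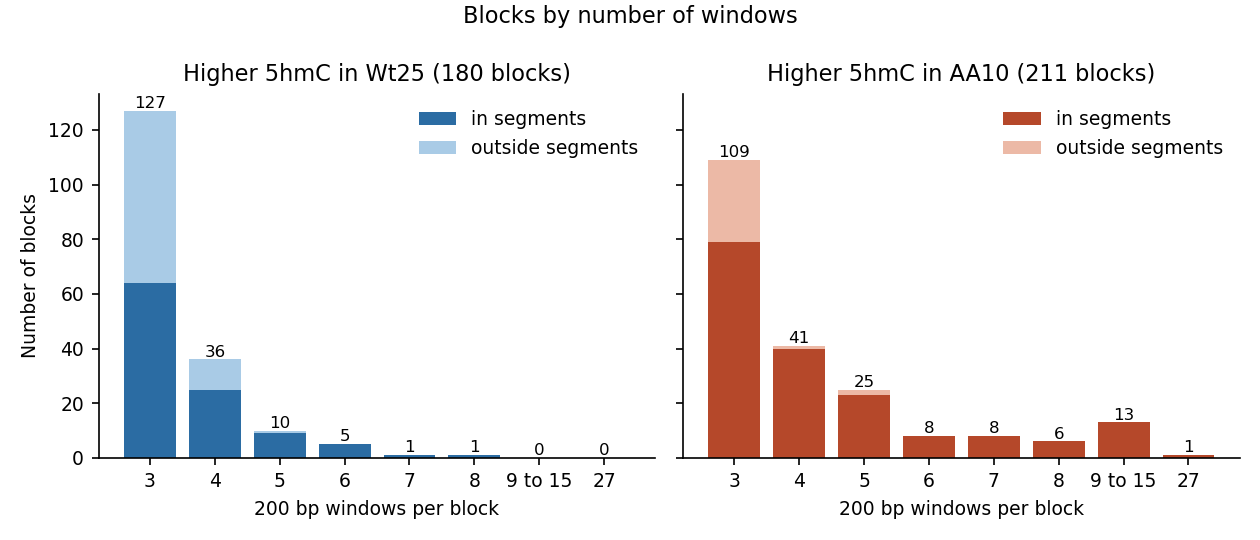
Number of blocks (y axis) by the number of 200 bp windows they join (x axis), for Wt25 (left) and AA10 (right), with blocks in segments dark and blocks outside segments light. Blocks of 3 windows were the most frequent in both lists (127 and 109), and the 14 blocks of more than 8 windows were all AA10 blocks in segments.

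The wide blocks sat in few places. A segment was defined as at least 20 windows of 1 direction in a row with gaps of up to 10 kb, and Wt25 had 27 segments and AA10 had 22. Segments held 105 of 180 Wt25 blocks (58.3%) and 178 of 211 AA10 blocks (84.4%). They held smaller shares of all windows, 11.3% in Wt25 and 20.4% in AA10. Blocks and segments are both defined by how close the calls lie, so this gap is partly built in and nothing is read from it. Blocks of 1 segment are neighbours and not independent. Outside segments, 75 Wt25 and 33 AA10 blocks remained, 0.779% and 0.527% of the regions there. Of those, 63 Wt25 and 30 AA10 blocks had 3 windows, and the widest had 5.

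Blocks outside segments differed in how close other calls of their own line lay. A run ended at a gap of over 10 kb or at a window of the opposite direction. In Wt25, 16 of the 75 were a run of their own, and 20 lay in runs of 10 to 19 windows. In AA10, 14 of the 33 were a run of their own and 6 lay in runs of 10 to 19 windows. Windows of the opposite direction were mostly distant, and this held for single windows too. The nearest lay a median of 288.2 kb from Wt25 blocks and 160.8 kb from AA10 blocks outside segments. One lay within 10 kb of 2 of 75 (2.67%) and 3 of 33 blocks (9.09%). Single windows outside segments had medians of 225.4 kb in Wt25 and 153.6 kb in AA10, and 4.33% and 6.36% of them had one within 10 kb.

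Few chromosomes carried most of the blocks. Wt25 had 33 blocks on chromosome 2, 31 on chromosome 13, 27 on chromosome 19, 17 on chromosome 5 and 16 on chromosome 7. In the same order, these chromosomes held 1140, 712, 591, 990 and 967 of all 12096 Wt25 windows. The block counts on chromosomes 5 and 7 were thus near the shares of windows there. AA10 had 61 blocks on chromosome 13, 52 on chromosome 12, 34 on chromosome 1 and 19 on chromosome 18. Of all 8630 AA10 windows, these chromosomes held 834, 592, 738 and 463. Outside segments the blocks were thinly spread, over 17 chromosomes in Wt25 with at most 10 on any of them, and over 15 chromosomes in AA10 with at most 4. Chromosome 6, which held 1000 AA10 windows and 136 Wt25 windows, had 3 AA10 blocks and no Wt25 block.

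**Figure D2:**
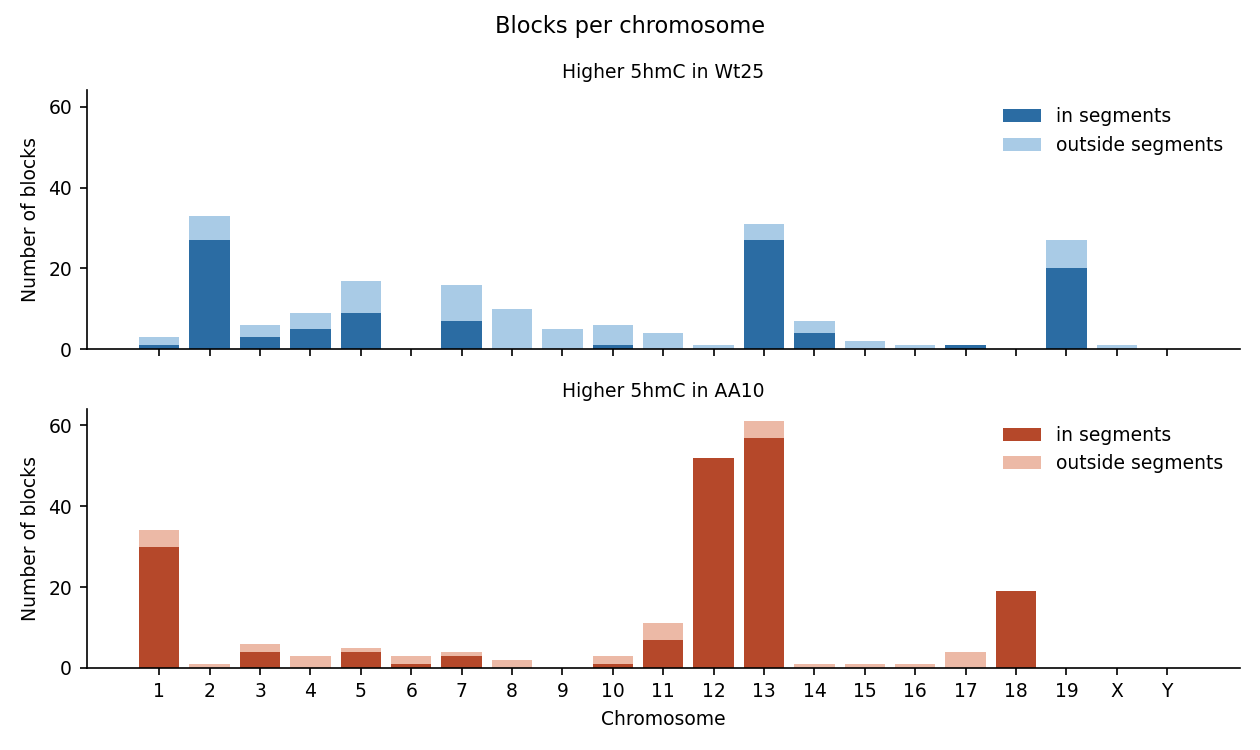
Number of blocks (y axis) on each chromosome (x axis) for Wt25 (top) and AA10 (bottom), with blocks in segments dark and blocks outside segments light. All 52 AA10 blocks on chromosome 12 and most of the 33 Wt25 blocks on chromosome 2 lay in segments. In Wt25, 8 of the 17 blocks on chromosome 5 and 9 of the 16 on chromosome 7 lay outside them.

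Segments with blocks were divided by how much of their blocks' sequence is copied elsewhere. Copies were counted as 32-mers of a window that occur more than once on the 21 chromosomes. In AA10, 124 of the 178 blocks in segments lay in the 6 segments whose blocks had a median of over 50% copied 32-mers in their middle window. In Wt25, 49 of 105 blocks lay in 6 such segments. The other 54 AA10 and 56 Wt25 blocks lay in 16 segments in each list.

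The 4 AA10 segments with blocks that had the most windows were among the 6 copied ones. The segment at chr12:22305803-22483200 held 387 windows and 52 blocks, had no RefSeq gene, and its middle windows were 100% copied 32-mers in the median. At chr1:118102603-118170800, 27 blocks took up 84.0% of 187 windows, and they were 97.4% repeat sequence in the median. This stretch held the widest block, with 155 CpGs in 5398 bp. The segment at chr13:120142403-120247600 had 171 windows and 24 blocks, 7 of them inside the predicted gene Gm20767. Together these 3 segments held 103 AA10 blocks (48.8%), whereas the 3 Wt25 segments with most blocks held 37 (20.6%). On chromosome 18, a segment of 241 windows that spans the vomeronasal receptor gene Vmn1r238 held 17 blocks.

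Copied Wt25 segments held at most 109 windows. The segment at chr13:66499603-66549200, annotated to 2410141K09Rik in the list, held 108 windows and 14 blocks. Inside the zinc finger gene Zfp934, 12 blocks lay in a segment of 86 windows. On chromosome 19, 9 blocks lay around Gm8978 and 8 around Cyp2c40 and Cyp2c69, which encode cytochrome P450 enzymes.

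The other segments had blocks with a median of at most 50% copied 32-mers, although single blocks there could be mostly copied. Of these AA10 segments, 3 had no RefSeq gene. Among blocks in any segment without a mostly copied middle window, 47 of 61 in Wt25 and 37 of 66 in AA10 lay inside a RefSeq gene. Among single windows it was 4903 of 9172 and 3237 of 6241, so AA10 was near the share of its single windows. Of the blocks in the other segments, Wt25 had 11 at chr2:119709203-119833800, 5 of them inside Rpap1. This stretch holds the receptor tyrosine kinase genes Tyro3 and Ltk and the inositol trisphosphate kinase gene Itpka. Another 7 lay inside Sae1, a subunit of the SUMO-activating enzyme, in a segment that also spans Bbc3, a mediator of apoptosis, and the complement receptor gene C5ar1. There were 6 inside Ganc, 5 inside Sez6l, and 4 inside Ptprg, a receptor tyrosine phosphatase. AA10 had 18 blocks at chr13:119425603-119487600, of which 9 lay inside 4833420G17Rik and 8 inside Paip1, which encodes a partner of the poly(A)-binding protein. Further along the chromosome, 4 blocks lay inside the chemokine gene Ccl28 and 1 inside Hmgcs1, an enzyme of cholesterol synthesis.

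**Figure D3:**
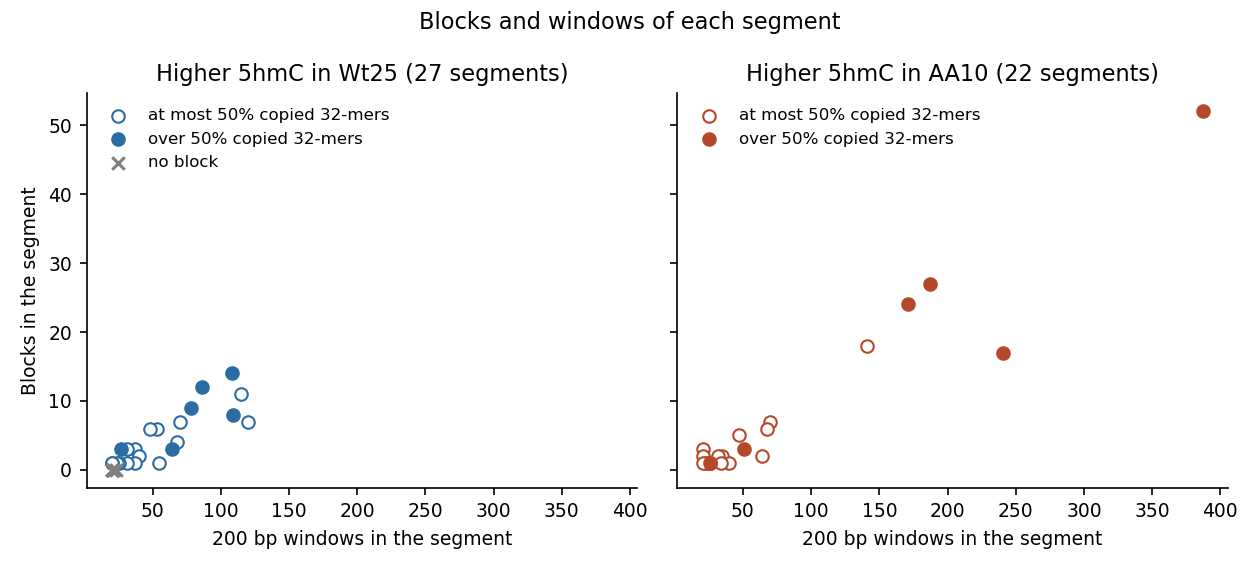
Blocks per segment (y axis) against windows per segment (x axis), 1 point per segment, for Wt25 (left) and AA10 (right); filled points are segments whose blocks had a median of over 50% copied 32-mers in their middle window, and crosses are segments without a block. The AA10 segment with 387 windows and 52 blocks stands at the far end, and all 5 segments without a block were Wt25 segments.

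The widest blocks were all in segments. In AA10 they were the 27 windows 164.4 kb from the start of Tsn, 2 blocks of 15 windows and 1 of 13 in the chromosome 12 segment, with 32, 85 and 33 CpGs, and 1 of 14 windows 36.7 kb from AF067061 with 81 CpGs. In Wt25 they were the 8 windows inside Caln1 with 17 CpGs, 7 windows inside Zfp934 with 29, and 3 blocks of 6 windows. Of these, 1 lay 47.1 kb from Gm38521 with 16 CpGs, 1 lay 731.4 kb from Gm10745 with 8 CpGs in sequence that was 100% repeat, and 1 inside 1700034G24Rik with 8 CpGs.

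Segments aside, the widest Wt25 blocks were modest in size and lay mostly between genes. The widest, at chr13:66469003-66470000, had 5 windows with 10 CpGs in 998 bp, and a block of 4 windows lay just beyond it, so that 2410141K09Rik was the nearest gene of both. The other 9 of the 10 widest had 4 windows each. Of these, 1 lay inside Ncbp1, a subunit of the nuclear cap-binding complex (annotated to Xpa in the list), and 1 inside Psg18, a pregnancy-specific glycoprotein gene. A further one lay 28.7 kb from the start of Psg28 and held 28 CpGs.

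A further 5 were intergenic. They lay 52.1 kb from Nnat, 147.9 kb from B020011L13Rik, 904.7 kb from Gm2516, 400.9 kb from Nmbr, which encodes the neuromedin B receptor, and 20.7 kb from Gm51288, where the list names Dhx40. The block whose nearest start is that of B020011L13Rik, annotated to Tsn in the list, was 100% repeat sequence and wholly made of copied 32-mers, and the one nearest to Gm2516 was 98.8% repeat sequence.

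The 10 widest AA10 blocks outside segments held from 6 to 51 CpGs, and the 10 widest Wt25 ones from 8 to 28. A block of 5 windows inside Lamc1 had 26 CpGs in 998 bp; its midpoint lay in an intron and it overlapped an exon. A second Lamc1 block had 3 windows and 8 CpGs. The other block of 5 windows, 18.6 kb from Gm36161, held 51 CpGs, its middle window was wholly copied, and a block of 3 windows lay nearby; the list names Gm21188 for both. At Sec24c, 4 windows held 46 CpGs in 798 bp, the highest density of the 33, and a Wt25 window lay 2.80 kb away.

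The other named AA10 blocks had 3 windows. They lay inside the potassium channel gene Kcnb2 (Terf1 in the list), the receptor tyrosine phosphatase gene Ptprj, the fatty acid elongase gene Elovl6 (no gene in the list) and an exon of Sfn, which encodes 14-3-3 sigma, and between genes, 259.5 kb from Tfap2d and 65.4 kb from the vomeronasal receptor gene Vmn2r2. Their CpG numbers ranged from 6 in Ptprj and in the block closest to Vmn2r2 to 31 in Sfn, where 74.9% of the middle window's 32-mers had a copy.

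Promoter blocks outside segments were few, 6 in Wt25 and 3 in AA10. In Wt25 they included Mir6377 with 7 CpGs, Plekha7, an adherens junction gene, with 11, the dynactin subunit gene Dctn6 with 20, the paralemmin gene Palm3 with 25 and the endosomal exchanger gene Slc9a9 with 10. In AA10 they were Sec24c, the acyl-protein thioesterase gene Lypla2 with 10 CpGs, and the start of Tnk2 and Tnk2os with 13. Only Sec24c among the promoter blocks named here had both a GC content of at least 50% and an observed-to-expected CpG ratio of at least 0.6, the usual limits of a CpG island.

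CpG island-like blocks made up 4 of 180 in Wt25 (2.22%) and 4 of 211 in AA10 (1.90%), against 2.50% and 1.99% of single windows. The Wt25 ones lay in an exon of Pdgfb, a growth factor gene, with 61 CpGs, in an exon of the imprinted gene Nnat with 41, in Ltk with 89 and in Dhdds with 31. Pdgfb, Nnat, Ltk and Dhdds were picked after their values were seen.

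Slc35g1 and Lamc1 each held 2 blocks outside segments. In Wt25, Slc35g1, a solute carrier gene, had 2 blocks in its exons with 14 and 8 CpGs, and 2 blocks lay 69.6 kb and 84.2 kb from Cdk1, the mitotic kinase gene, in introns of Ank3 in the GENCODE annotation.

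Blocks in genes of the pathways linked to the study's question were counted beside those in all genes. Of 55304 GENCODE genes, 0.128% overlapped a Wt25 block and 0.0850% an AA10 block, and 6.41% and 4.72% overlapped a window of the same lines. The gene lists are short and were not matched to all genes on length, so nothing is read from their counts. The gene lists covered enzymes of 5hmC and DNA methylation, cadherins and catenins, axon guidance, synaptic adhesion, pluripotency, neurogenic factors and lipid metabolism. Among 17 pluripotency genes, 1 had a Wt25 block, the RNA-binding protein gene Lin28a, with 3 windows and 11 CpGs in an intron. Of 31 cadherin and catenin genes, 1 had an AA10 block, with 4 windows in an intron of Ctnna3, which encodes alpha T-catenin, 30.5 kb from its start. Both lay in segments. Of 18 lipid and energy genes, Elovl6 alone had a block, with 19 CpGs in AA10. No block lay in the 12 enzymes of 5hmC and DNA methylation, the 39 axon guidance genes, the 29 synaptic genes or the 19 neurogenic factors. A Wt25 window lay in 13 cadherin and catenin, 10 axon guidance, 9 synaptic, 4 lipid and energy, 2 neurogenic and 1 pluripotency gene, and in 2 enzymes of 5hmC and DNA methylation. An AA10 window lay in 10, 11, 8, 7, 4, 0 and 3 genes of the same lists.

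Blocks and single windows alike lay above the genome mean in CpGs, and the blocks not uniformly so. The 21 chromosomes have a mean of 0.826 CpGs per 100 bp. Every block held a CpG, and only 41 of 9172 Wt25 and 20 of 6241 AA10 single windows held none. The distance from the genome mean is therefore a trait of the listed windows and not of blocks. Blocks in segments held a median of 1.00 in both lists, and blocks outside segments 1.51 in Wt25 and 1.67 in AA10. Single windows outside segments had a median of 1.52 in both lists. Pooled over all bases, like the genome mean, blocks in segments held 1.303 in Wt25 and 1.344 in AA10. Blocks outside segments held 1.905 and 2.257, and single windows outside segments 1.687 and 1.649.

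Mean CpGs per window were close at the ends and inside of Wt25 blocks, and higher inside in AA10 blocks. Outside segments, the end windows of Wt25 blocks had 3.76 ± 3.41 CpGs (mean ± SD, n = 150 windows) and the inner windows 3.73 ± 3.55 (n = 88), and the adjoining bins that were not listed had 3.11 ± 3.52 (n = 150). In AA10 the values were 4.06 ± 2.74 at the ends (n = 66), 5.05 ± 3.70 inside (n = 38) and 2.85 ± 3.08 beside the blocks (n = 66). These means differ by less than their spread. Windows of 1 block are not independent, and wider blocks give more inner windows, so they weigh more on the inner mean. In AA10, the 4 windows at Sec24c held 5, 17, 13 and 11 CpGs from end to end. The 5 inside Lamc1 held 5, 4, 7, 8 and 2, and the 5 near Gm36161 held 11, 9, 10, 12 and 8. The difference between ends and inside was not tested. The block mean lay above its own flanks in 50 of 75 Wt25 blocks and 27 of 33 AA10 blocks outside segments, and in 85 of 105 and 145 of 178 in segments. This was not particular to blocks. Wt25 single windows outside segments had a mean of 1.687 CpGs per 100 bp, against 1.315 and 1.307 in the bins beside them. In AA10 the values were 1.649 against 1.278 and 1.289.

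**Figure D4:**
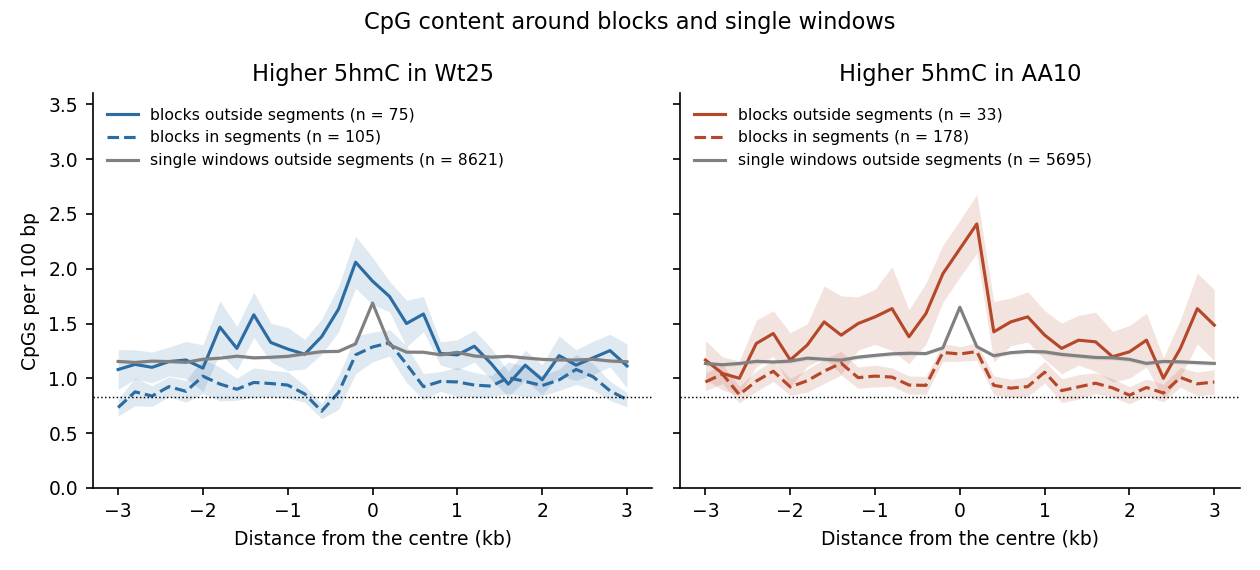
Mean CpGs per 100 bp (y axis) in bins of 200 bp by distance from the centre in kb (x axis), for Wt25 (left) and AA10 (right), with shading for the standard error over regions and a dotted line at the genome mean of 0.826. Blocks outside segments reached 2.06 in Wt25 and 2.41 in AA10 within 0.2 kb of the centre, and blocks in segments stayed at or below 1.32 there. Single windows outside segments also peaked at the centre, at 1.687 and 1.649.

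Sequence and features were compared by Fisher's exact test (two-sided, P-values adjusted by the Benjamini-Hochberg method), with 1 middle window or midpoint per region so that width did not enter. Of 18 tests over all regions, 8 passed an adjusted P-value of 0.05. Outside segments none of the 18 passed, and 4 had an unadjusted P-value under 0.05. In an alternative chosen after the data were seen, only the widest region of each run of windows was kept, and none of the 18 passed, with 1 unadjusted P-value under 0.05. Regions are not replicates of a line, so the P-values compare sets of regions and not cell cultures. Fisher's exact test also counts neighbouring blocks of 1 segment as independent, which they are not. The P-values over all regions are therefore smaller than the data bear out.

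CpG-rich middle windows, with at least 4 CpGs, were scarcer in blocks than among single windows when all regions were counted. They made up 23.3% of Wt25 blocks (42 of 180) against 35.5% of single windows (3257 of 9172; Fisher's exact test, adjusted P = 0.00133). In AA10 they made up 24.2% of blocks (51 of 211) against 34.2% of single windows (2136 of 6241; exact test, adjusted P = 0.00353). Outside segments this was 34.7% against 36.6% in Wt25 (exact test, adjusted P = 0.81), and in AA10 it turned to 57.6% of 33 blocks against 35.9% of single windows (adjusted P = 0.0991). In segments the share was 15.2% of Wt25 blocks and 17.98% of AA10 blocks, next to 17.8% and 16.9% of the single windows there.

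Repeat sequence followed the segments too. A middle window with over 50% of its bases marked as repeat was found in 44.1% of AA10 blocks (93 of 211), above 24.5% of AA10 single windows (exact test, adjusted P = 7.24e-09) and 26.1% of Wt25 blocks (adjusted P = 0.000916). Wt25 blocks were close to their single windows at 25.2% (exact test, adjusted P = 0.905). Outside segments the shares were 20.0% of Wt25 and 15.2% of AA10 blocks, below the 25.0% and 23.4% of single windows, with adjusted exact P-values of 0.527 for both. With 1 region per run, the AA10 shares were 27.8% of blocks and 22.8% of single windows.

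Copied sequence was measured beside these shares. A middle window with over 50% copied 32-mers was found in 30.6% of Wt25 and 55.5% of AA10 blocks, against 9.06% and 10.3% of single windows. Outside segments the shares of blocks were 14.7% and 15.2%, against 8.26% and 8.06% of single windows. The part of copied sequence in the calls was not tested.

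Genomic features moved with the segments as well. The midpoint of 68.7% of AA10 blocks was intergenic (145 of 211), against 45.6% of AA10 single windows (exact test, adjusted P = 4.12e-10) and 44.4% of Wt25 blocks (adjusted P = 5.50e-06). Introns held 24.6% of AA10 blocks, against 45.7% of AA10 single windows (exact test, adjusted P = 3.53e-09) and 45.0% of Wt25 blocks (adjusted P = 8.36e-05). Outside segments, 45.5% of AA10 blocks were intergenic and 39.4% intronic, and of Wt25 blocks 52% were intergenic and 32% intronic, with adjusted exact P-values of 0.91 and 0.878 between the lists. Keeping 1 region per run, 48.15% of 54 AA10 blocks were intergenic, against 45.27% of AA10 single windows and 47.31% of Wt25 blocks.

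Within segments, the copied blocks were mostly intergenic. Of the 112 AA10 blocks in segments with a mostly copied middle window, 92.0% were intergenic, against 40.9% of the other 66. In Wt25 these shares were 61.4% of 44 and 23.0% of 61. The CpG medians were close in all 4 sets, between 1.00 and 1.06 per 100 bp.

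Promoters held 7 Wt25 blocks (3.89%) and 5 AA10 blocks (2.37%), against 2.60% and 3.48% of single windows, and exons held 12 (6.67%) and 9 (4.27%), against 6.10% and 5.21%. None of these differences passed the test, with adjusted exact P-values from 0.578 to 0.832. Outside segments, 8.00% of Wt25 blocks (6 of 75) and 9.09% of AA10 blocks (3 of 33) were promoter blocks, against 2.65% and 3.58% of single windows, with adjusted exact P-values of 0.0918 and 0.46.

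**Figure D5:**
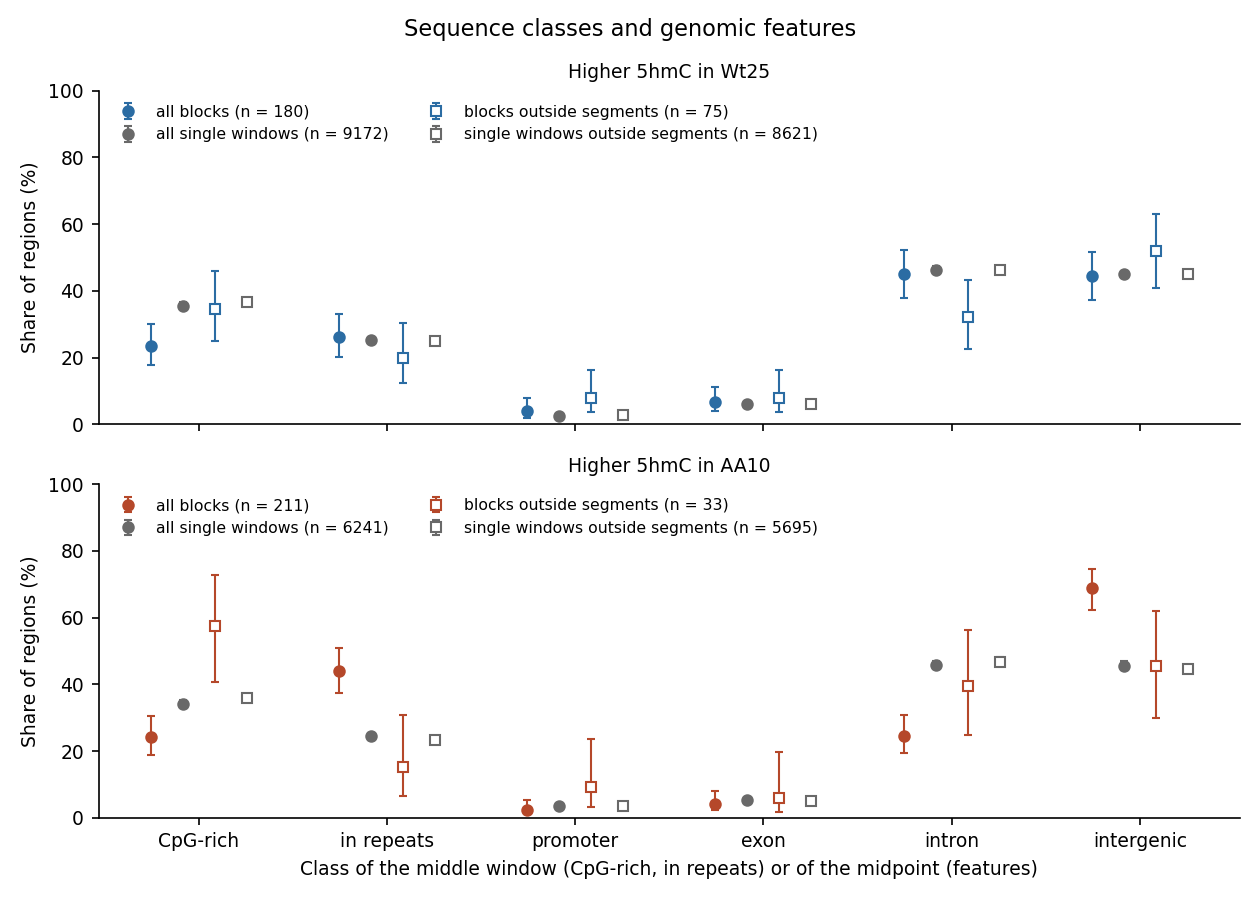
Share of regions (y axis, %) with a CpG-rich or repeat-marked middle window or a midpoint in each genomic feature (x axis), for Wt25 (top) and AA10 (bottom), with 95% Wilson intervals; filled symbols are all regions, open symbols regions outside segments, coloured symbols blocks and grey symbols single windows. The 68.7% intergenic share of AA10 blocks and the 24.2% CpG-rich share moved to 45.5% and 57.6% outside segments, where the intervals of the 33 blocks are wide.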

How the data were processed

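The data were the lists of differentially 5-hydroxymethylated windows from 5hmC-DIP of Wt25 and AA10 ESCs, 1 list per direction, each pooling 3 libraries per line. For the deposited positions, the authors placed uniquely mapping reads on GRCm38 with STAR, marked and dropped duplicates (Picard) and called 200 bp bins with MEDIPS at a P-value below 0.05 and a fold change of 1 or more. Bins with IgG-DIP peaks, low-complexity sequence or simple tandem repeats were taken out, and the authors assigned genes with HOMER. Tool versions are not given in the sources used here. The removed bins can split a block. The direction of a list was taken from its name. RNA-seq and H3K27ac libraries were not analysed here, and a few items that the rule below names are not reported here.

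Each listed window spans 198 bp, and windows were joined at listed gaps of up to 3 bp. CpGs and lower-case repeat marks came from GRCm38.p6. Features were read at the midpoint in the order promoter (1 kb upstream to 100 bp downstream of a start), exon, intron and intergenic, on RefSeq transcripts. Gene lists used GENCODE vM21 basic. All 93 gene identifiers in Wt25 blocks and 57 of 58 in AA10 blocks had a symbol. Copies were counted as 32-mers on both strands. Fisher's exact tests were adjusted over 6 sequence and 12 feature tests. The blocks, gene lists and tests were chosen with earlier results of these data known.

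Named items were, per list, the 10 widest blocks outside segments (ties by genome order) and the 5 widest inside, genes with at least 2 blocks outside segments, the 5 widest promoter blocks outside segments, and members of the gene lists with a block. The segments named for their many blocks, and the genes in them, were chosen after their values were seen. Alternatives were no segments, a minimum of 4 windows, no chromosome 6, all narrower regions, 5 CpGs, other repeat limits, GENCODE features and any overlap. The computations were tested on simulated data, and all 34 checks gave the known answer. Tests used scipy 1.17.1 in Python 3.11.15, copy counts numba 0.67.0, tables pandas 2.3.3 and numpy 2.4.6, and figures matplotlib 3.10.9.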

Additional observations from a re-analysis of the deposited data

How the results depend on the processing

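Differences are in percentage points, first minus second group. Leaving out chromosome 6 changed no direction or call in the 18 tests, and comparing blocks with all narrower regions changed none of the 12 tests it applied to. Without segments, 10 differences turned. Between Wt25 and AA10 blocks these were repeats (4.85), promoters (-1.09), introns (-7.39) and intergenic regions (6.55). Between Wt25 blocks and single windows they were repeats (-5.02) and intergenic regions (6.99), and for AA10 they were CpG-rich windows (21.7), repeats (-8.27), promoters (5.51) and exons (1.00). The CpG difference of Wt25 (-1.98) and the AA10 differences in introns (-7.35) and intergenic regions (0.837) no longer passed. With 1 region per run, added after seeing the data, the turned values were exons between the lists (-1.73), Wt25 repeats (-5.56) and intergenic regions (1.09), and AA10 CpG-rich windows (9.34), promoters (3.97) and exons (4.03). No longer passing there were repeats (-7.35), introns (2.45) and intergenic regions (-0.836) between the lists, Wt25 CpG-rich windows (-7.64), and AA10 repeats (4.93), introns (-10.9) and intergenic regions (2.88). With a minimum of 4 windows, 53 Wt25 and 102 AA10 blocks were left, and the promoter differences (-0.074 between the lists, -0.708 in Wt25) and Wt25 exons (-0.434) and introns (2.69) turned. Without segments 75 and 33 blocks were left. With 5 CpGs the difference between the lists turned (2.92) and that of Wt25 did not pass (-5.37). Leaving out windows mostly in repeats, the AA10 CpG difference did not pass (-5.41). Counting any marked base, the repeat differences between the lists (-6.44) and in AA10 (5.72) did not pass. On GENCODE transcripts Wt25 exons (-0.736) and introns (3.32) and AA10 exons (0.354) turned. With any overlap, which favours wider regions by construction, Wt25 promoters passed (4.73, adjusted P = 0.00384 by Fisher's exact test) and AA10 exons turned (3.27). With gaps of up to 5 kb, 77.7% of AA10 blocks lay in segments. Apart from those named as passing or not, the turned differences had not passed before and did not pass after, except repeats, introns and intergenic regions between the lists and CpG-rich windows and repeats of AA10, which had passed over all regions. Allowing 1 bin between windows gave 230 and 224 blocks. No paired analysis was possible because the lists pool the replicates, so no replicate could be left out, and with no score per window no stricter threshold could be set. The number of blocks outside segments, 75 and 33, limits the precision of every share there, and the depth behind a window is unknown.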
